A study of Mus musculus with 4 samples.

Results

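The cytosolic ribosomal protein genes are described here in GS cells, cultured spermatogonia from mouse testis. They were chosen by name alone: symbols that start with Rpl or Rps and a number, together with Rplp0, Rplp1, Rplp2 and Rpsa, leaving out names that carry the pseudogene ending -ps. The rule found 83 of the 32285 genes counted. By their names 46 belong to the large subunit or its stalk and 31 to the small subunit, and 6 are paralogs of a core gene (Rpl3l, Rpl7l1, Rpl10l, Rpl22l1, Rpl39l and Rps27l).

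The study compared GS cells of 2 mouse strains, 129 (2 libraries) and C57BL/6 (B6, 2 libraries). All were wild-type cultures begun from testes of mice aged 10 days. Libraries were made from polyadenylated RNA with a stranded kit, and the values are raw read counts per gene. Whether replicate libraries stand for different cultures or different animals is not in the labels, so the p-values measure a spread that may be technical. The tag F0, found only in the B6 titles, is not explained there.

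The ribosome joins a small subunit, which reads the messenger RNA, to a large subunit, which forms the peptide bonds. Each subunit is a core of ribosomal RNA covered by proteins that are mostly present in 1 copy per ribosome, so they are needed in equal amounts, and their genes are among the most highly expressed in growing cells. Most of their messengers begin with a run of pyrimidines (the 5′ terminal oligopyrimidine, or TOP, element), through which LARP1 and mTOR signalling control their translation. A few have paralogs. Rpl10l and Rpl39l, for example, are autosomal copies of X-linked genes and are known in mouse for their expression in male germ cells, where the X chromosome is silenced during meiosis.

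Totals per library were 20798809 and 20375086 counts in 129 and 25374801 and 20488618 counts in B6. The labelled cell type was checked against 15 markers of spermatogonia and other germ cells, of which none was at 0; they summed to 3280 and 4134 CPM (read counts normalised for library depth) in 129 and to 4083 and 4358 CPM in B6. Fibroblast markers (10 genes, none at 0) were also present, at 6450 and 2565 CPM in 129 and at 5537 and 3624 CPM in B6. The 8 Sertoli cell markers summed to 286 and 149 CPM in 129 and to 46.8 and 33.5 CPM in B6, and the 5 endothelial markers to 196 and 75.1 CPM in 129 and to 14.3 and 20.1 CPM in B6. Single genes carried much of the sums in 129: Fn1 (fibroblast), Clu and Rhox5 (Sertoli), and Eng and Cdh5 (endothelial). Without overlap, 9 of the 15 germ cell markers were lower in 129 and 3 higher. Among the fibroblast markers 6 were lower in 129 and 3 higher, again without overlap. Likewise 6 Sertoli markers were higher and 1 lower, and 3 endothelial markers were higher and 0 lower. Over all genes tested, 29.2% were lower and 31.0% higher without overlap. In bulk RNA, fewer cells of a type and less RNA per cell cannot be told apart.

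Sequences at the start of some genes with the lowest and highest fold changes are printed first, because the start carries the TOP element. Each window runs from 40 bases before the annotated start to 20 bases from it (RefSeq, GRCm38.p6, read 5′ to 3′ on the gene's strand). Capitals mark the longest pyrimidine run of 8 or more bases that lies between 20 bases before and 30 after the start, where there is one. Rps3a1 (chr3:86142649-86142708, minus strand), Rpl22l1 (chr3:28805468-28805527, plus), Rpl34 (chr3:130730318-130730377, minus, 1 of its 2 starts) and Rpl39l (chr16:10170188-10170247, plus) were among the 5 lowest in 129. Rpl10 (chrX:74270776-74270835, plus) and Rps4x (chrX:102189372-102189431, minus) had the highest fold changes. Rpl27a (chr7:109519155-109519214, plus) and Rpl15 (chr14:18270967-18271026, minus) show the element in genes with smaller differences.
Rps3a1: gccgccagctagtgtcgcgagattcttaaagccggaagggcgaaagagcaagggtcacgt
Rpl22l1: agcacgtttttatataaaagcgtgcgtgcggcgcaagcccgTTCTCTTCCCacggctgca
Rpl34: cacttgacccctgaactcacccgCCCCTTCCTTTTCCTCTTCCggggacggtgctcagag
Rpl39l: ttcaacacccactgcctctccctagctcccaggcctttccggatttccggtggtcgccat
Rpl10: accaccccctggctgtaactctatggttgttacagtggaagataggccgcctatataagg
Rps4x: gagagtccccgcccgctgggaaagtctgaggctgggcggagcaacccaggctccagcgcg
Rpl27a: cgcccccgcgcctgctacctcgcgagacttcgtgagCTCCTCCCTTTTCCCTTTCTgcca
Rpl15: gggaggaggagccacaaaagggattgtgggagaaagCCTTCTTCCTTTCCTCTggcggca

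The pyrimidine run was 20 bases long at Rpl34 and at Rpl27a, 17 at Rpl15 and 10 at Rpl22l1. Rps3a1, Rpl39l, Rpl10 and Rps4x held no run of 8 bases within that stretch. In Rpl39l a longer run begins further upstream and was not counted. Starts were taken as annotated in RefSeq and were not mapped in these cells, so a run at another start would be missed.

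Ribosomal protein genes took a smaller share of the reads in 129 than in B6. They took 2.53% and 2.88% of the counts of the 129 libraries, against 3.10% and 3.57% of those of the B6 libraries. Both 129 libraries lay below both B6 libraries, and within each strain replicate 2 was the higher. The shares averaged 2.70% ± 0.25 in 129 and 3.33% ± 0.33 in B6 (SD, n = 2 each), a difference of −0.63 percentage points and a ratio of 0.811. The exact two-sided permutation test gave p = 0.333, the smallest that 2 libraries against 2 allow. The 95% Wilson intervals of the 4 shares were narrow (2.52% to 2.53%, 2.87% to 2.89%, 3.09% to 3.11% and 3.56% to 3.57%) and cover counting error only. Within each strain the library with more fibroblast marker RNA had the smaller share of ribosomal protein counts; its part in the result was not tested.

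**Figure D1:**
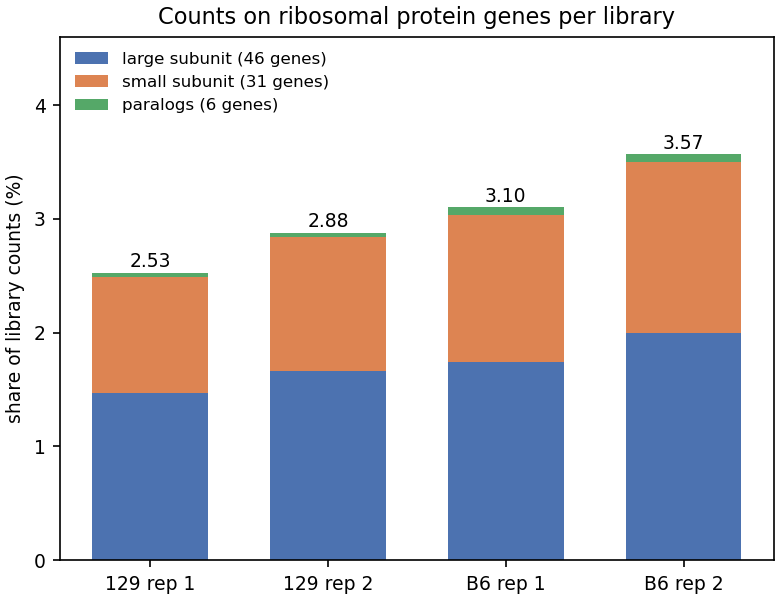
Share of each library's counts (%) on the ribosomal protein genes, stacked by large subunit, small subunit and paralogs, with the sum above each bar. The 129 libraries reach 2.53% and 2.88% and the B6 libraries 3.10% and 3.57%.

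In both subunits each 129 library had a smaller share than each B6 library. The 46 large subunit genes took 1.56% ± 0.134 of the counts in 129 and 1.87% ± 0.181 in B6, a ratio of 0.838. The 31 small subunit genes took 1.10% ± 0.114 in 129 and 1.40% ± 0.151 in B6, a ratio of 0.785. The paralogs had the lowest ratio, 0.589, with 0.0393% ± 0.00159 in 129 and 0.0668% ± 0.00276 in B6 (SD, n = 2 each throughout). For each of these 3 groups the libraries of the strains did not overlap, and the exact permutation p was again 0.333.

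A few abundant genes carried much of the lower share. The 10 genes with the largest losses made up 50.5% of the summed difference. Rpl4, whose protein lines the peptide exit tunnel, accounted for 7.60% of it. Rpl13a accounted for 7.34%, Rps3a1 for 6.37%, Rps3, which sits at the messenger entry channel, for 5.53%, and the stalk protein gene Rplp1 for 5.06%.

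Mitochondrial ribosomal protein genes, which encode the separate ribosome of that organelle, differed less. These 78 genes took 0.334% and 0.368% of the counts in 129 and 0.341% and 0.383% in B6. The strains overlapped, the ratio was 0.970 and the exact permutation p was 0.667. The difference between the cytosolic and mitochondrial ratios was not tested.

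Gene by gene, the ribosomal protein genes were shifted downward in 129, mostly by small amounts. All 83 passed the filter on low counts, and edgeR's quasi-likelihood test was run over 16005 genes. At a Benjamini-Hochberg adjusted p under 0.05 it called 3 of the 83 lower in 129 and 0 higher; over all genes tested 2.86% were called, 1.02% lower and 1.84% higher. At an unadjusted p under 0.05, 25 of the 83 were lower, against 12.2% of all genes, and 0 were higher. DESeq2 called 10 lower and 0 higher, against backgrounds of 5.70% and 9.63%. The log2 fold change (129 over B6) was below 0 in 75 of the 83 (90.4%), against 49.1% of all genes. Its median was −0.31 (quartiles −0.47 and −0.14, range −2.23 to 0.44), while the median over all genes was 0.015.

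In size, 42 of the 83 members lay within 1.25-fold between the strains, and 5 were 2-fold or more lower in 129. Neither count was made over all genes tested. Both 129 libraries were below both B6 libraries in 55 members (66.3%), against 29.2% of all genes tested. Both were above in 2 members, Rps27l and Rpl10 (2.41%), against 31.0% of all genes. The strains overlapped in the other 26. The median log2 fold change was −0.25 in the large subunit, where 0 genes were called by edgeR (10 at an unadjusted p under 0.05, 4 by DESeq2), and −0.34 in the small subunit, where 1 was called. In the 6 paralogs it was −0.65 and 2 were called.

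**Figure D2:**
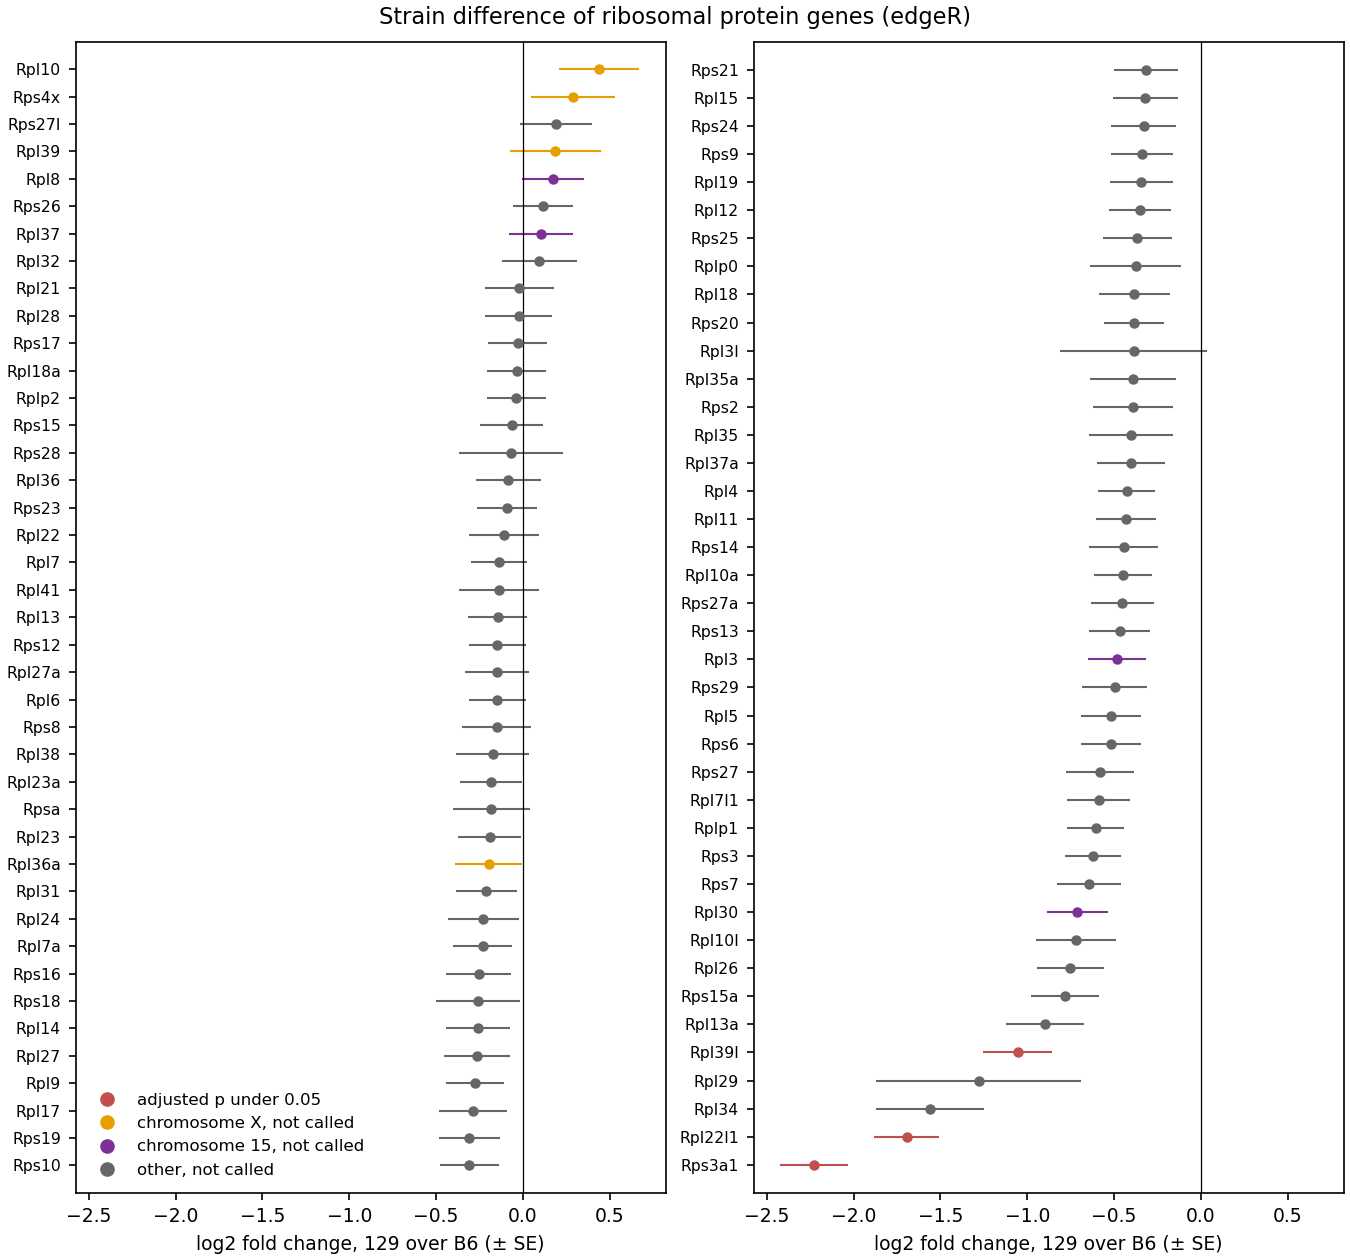
The log2 fold change (129 over B6) with its SE from edgeR for 81 of the 83 genes, ordered from the highest (top left) to the lowest (bottom right). Most lie below 0, and the 3 called genes, Rps3a1, Rpl22l1 and Rpl39l, are coloured red.

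Rps3a1 (ENSMUSG00000028081, chr3:86137940-86142702, minus strand, mm10) encodes a small subunit protein near the messenger exit channel and had the lowest fold change of the 83. It was at 101.8 and 121.6 CPM in 129 and at 489 and 558 CPM in B6. The libraries of the strains were far apart, and the mean of 111.7 ± 14.0 CPM in 129 compares with 523.5 ± 48.7 CPM in B6 (SD, n = 2 each). Its log2 fold change was −2.23 ± 0.19 (SE), with an edgeR adjusted p of 0.0288. This gene has near-identical copies: 59.8% of the 76-base windows of its transcripts also occur in 7 other annotated genes, all processed pseudogenes. Rps3a2 alone holds 466 of the 902 windows. Counts of these copies were not analysed here, so its count is uncertain.

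Rpl22l1 (ENSMUSG00000039221, chr3:28805436-28807424, plus strand) is the paralog of Rpl22, whose protein is known in mouse to repress it. It was at 54.0 and 50.8 CPM in 129 and at 168.8 and 170.2 CPM in B6, 3.23-fold higher in B6. The replicates of each strain were close and the strains did not overlap. A log2 fold change of −1.69 ± 0.19 (SE) came with an edgeR adjusted p of 0.0288. A share of 41.8% of its 76-base windows occurs elsewhere, 232 of 560 of them in the transcribed pseudogene Gm15421, and the antisense gene Gm33051 overlaps it on the other strand. Its parent Rpl22 was at 221 and 268 CPM in 129 and at 292 and 235 CPM in B6, and overlapped between the strains.

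Rpl39l (ENSMUSG00000039209, chr16:10170226-10174911, plus strand) encodes the germ cell form of a small protein of the exit tunnel. It was at 81.1 and 80.7 CPM in 129 and at 187.4 and 148.8 CPM in B6. The 129 libraries were nearly equal, and both B6 libraries were above them. The log2 fold change was −1.06 ± 0.20 (SE), with an edgeR adjusted p of 0.0486, close to the threshold. None of its 76-base windows was found in another annotated gene.

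The calls depended on single libraries more than the fold changes did. Without 129 replicate 1, B6 replicate 1 or B6 replicate 2, edgeR called 0 of the 83 genes (11, 23 and 13 at an unadjusted p under 0.05), and its calls over all genes numbered 13, 0 and 1. Without 129 replicate 2 it called Rps3a1 and Rpl22l1. Over these 4 fits the log2 fold change was −2.36 to −2.10 for Rps3a1, −1.73 to −1.65 for Rpl22l1 and −1.26 to −0.89 for Rpl39l.

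Other genes with low fold changes were not called by edgeR. Rpl34 (chr3:130726831-130730398), a large subunit gene, was at 119 and 142 CPM in 129 and at 269 and 503 CPM in B6. The strains were apart, yet the B6 libraries differed 1.87-fold, and the log2 fold change of −1.56 ± 0.31 had an edgeR adjusted p of 0.0527 (DESeq2 adjusted p 0.000325). Rpl13a (chr7:45125558-45128761), known in human cells as a protein that leaves the ribosome to silence inflammatory messengers, was at 527 and 607 CPM in 129 and at 857 and 1255 CPM in B6. Its log2 fold change was −0.90 ± 0.22, with an adjusted p of 0.0668 by edgeR and 0.0176 by DESeq2.

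Rpl29 (chr9:106429454-106431568), another large subunit gene, had 1 library far above the rest. It was at 32.3 and 37.1 CPM in 129 and at 34.0 and 134.8 CPM in B6. B6 replicate 1 lay between the 129 libraries, and B6 replicate 2 was 3.96-fold above it. With a log2 fold change of −1.28 ± 0.59 it had an edgeR adjusted p of 0.217.

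Among the genes called by DESeq2 alone were Rps15a, Rps3, Rpl26 and Rpl30. Rps3 was at 685 and 718 CPM in 129 and at 1037 and 1121 CPM in B6, with a log2 fold change of −0.62 and adjusted p-values of 0.0709 by edgeR and 0.0403 by DESeq2. Rps15a was at 269.9 and 338 CPM in 129 and at 481 and 564 CPM in B6. Neither gene overlapped between the strains. Rpl5 and Rpl11, whose proteins bind MDM2 when ribosome assembly is disturbed, had log2 fold changes of −0.52 and −0.43 and were not called (edgeR adjusted p of 0.111 and 0.165).

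The 6 highest fold changes were small, and none passed the test. Rpl10 (ENSMUSG00000008682, chrX:74270812-74273135), which joins the large subunit late in its assembly, was at 204 and 149.6 CPM in 129 and at 145.9 and 115.1 CPM in B6. The strains were apart by a narrow margin, and the log2 fold change of 0.44 ± 0.23 had an edgeR adjusted p of 0.265. Of its 76-base windows, 71.0% occur in 11 other annotated genes, so its count is uncertain. Rps4x, with 52.1% of its windows in 8 other annotated genes, was at 186 and 120.5 CPM in 129 and at 126.5 and 124.2 CPM in B6. Only 129 replicate 1 stood above the others, and without it the log2 fold change was −0.053 in place of 0.29.

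Rps27l, a p53-induced paralog of Rps27, was at 72.1 and 78.4 CPM in 129 and at 71.3 and 60.6 CPM in B6, with a log2 fold change of 0.19. Rpl39 was at 56.4 and 44.3 CPM in 129 and at 50.6 and 37.7 CPM in B6, also with 0.19. The log2 fold change of Rpl39 was −0.050 without B6 replicate 2. Rpl8, at 1015 and 1094.5 CPM in 129 and 838 and 1033 CPM in B6, and Rps26, at 422 and 461 CPM in 129 and 379 and 433 CPM in B6, had log2 fold changes of 0.17 and 0.12. Rpl39, Rpl8, Rps26 and Rps4x overlapped between the strains, and Rps27l did not.

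The spread between replicates sets how these differences read. The difference between the strain means was larger than both replicate differences in 44 of the 83 genes, and all 44 were lower in 129. This count was not made over all genes tested, so it does not set the members apart from them. The replicates were themselves shifted: replicate 2 was above replicate 1 for 62 genes in 129 and for 64 in B6. Replicate 1 against replicate 2 gave a median log2 ratio of −0.13 within 129 and −0.17 within B6, whereas over all genes tested it was −0.0055 and −0.0030. Both are smaller in size than the median strain difference of −0.31.

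Single genes moved more between the B6 libraries than between the 129 libraries. In B6, 6 genes differed 1.5-fold or more, and replicate 2 was the higher in each: Rpl29 by 3.96-fold, Rpl34 by 1.87-fold, Rps28 by 1.86-fold, Rplp0 by 1.67-fold, Rps18 by 1.54-fold and Rpl35 by 1.51-fold. In 129 only Rps4x did. Across the 83 genes the B6 replicate ratio followed the GC content of the coding sequence (Spearman's rho −0.59), and the 129 ratio followed it in the other direction (rho 0.31). The strain difference itself was less related to GC content (rho 0.14) and to the share of windows found in other genes (rho 0.14). These are descriptions over genes that share 4 libraries, with no test.

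**Figure D3:**
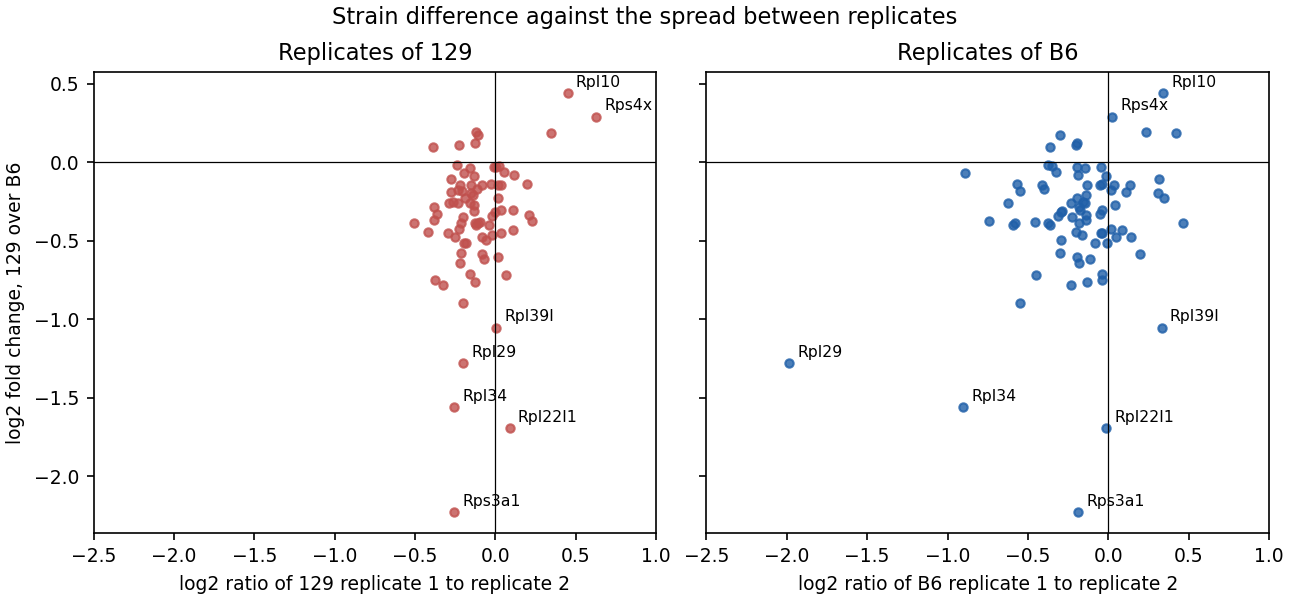
Log2 fold change of each of the 83 genes (129 over B6, vertical axis) against the log2 ratio of replicate 1 to replicate 2 within 129 (left) and within B6 (right). Most points lie left of 0 and below 0 in both panels, and Rpl29 is far left in B6, where replicate 2 was 3.96-fold above replicate 1.

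Near-identical copies are common in this family. A median of 26.3% of a gene's 76-base windows was found in other annotated genes, with a highest value of 84.6%. In 20 genes it was over 50%, and in 4, among them Rpl3l, Rpl39l and Rps3, it was 0. The 40 genes under 25% had a median log2 fold change of −0.32 and the 43 others −0.26.

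Levels were compared between genes as CPM per kb of exon length. Rplp1, an acidic stalk protein that binds elongation factors, was the highest of the 83, at 1333 and 1321 CPM per kb in 129 and at 1884 and 2155 CPM per kb in B6. Its edgeR adjusted p between the strains was 0.0795, with a log2 fold change of −0.61 ± 0.17 (SE). Rpl4 came next among the large subunit genes, at 723 and 845 CPM per kb in 129 and at 1060 and 1047 CPM per kb in B6. Rpl8, Rpl32 and the stalk base Rplp0 followed with means over the 4 libraries of 732, 592 and 513 CPM per kb.

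Rps15 was the highest small subunit gene, at 813 and 783 CPM per kb in 129 and at 741 and 927 CPM per kb in B6. Its strains overlapped. Rps21, another small subunit gene, was at 317 and 348 CPM per kb in 129 and at 372 and 455 CPM per kb in B6 and did not overlap (log2 fold change −0.31 ± 0.19, edgeR adjusted p 0.315). Rps2, at the messenger entry channel, was at 280.04 and 325 CPM per kb in 129 and at 318 and 475 CPM per kb in B6, and overlapped.

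The median member was at 150 CPM per kb, and Rpl3l, the paralog of heart and skeletal muscle, was the lowest at 3.21 CPM per kb. The order depends on which exons are counted in the length. With the median length of the protein-coding transcripts, an alternative added after the data were examined, Rplp1 was still the highest at 1673 CPM per kb, but Rps24 became the highest small subunit gene at 1243 CPM per kb, where the union of exons gave 104.3 CPM per kb.

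The paralogs were compared with their parents, since a pair encodes related proteins. Coding sequences of equal length are printed for Rpl39l and Rpl39, the pair with a called paralog, and for Rps27l and Rps27, the pair whose fold changes ran the opposite way (GENCODE M21, 5′ to 3′, capitals marking the bases that differ).
Rpl39l: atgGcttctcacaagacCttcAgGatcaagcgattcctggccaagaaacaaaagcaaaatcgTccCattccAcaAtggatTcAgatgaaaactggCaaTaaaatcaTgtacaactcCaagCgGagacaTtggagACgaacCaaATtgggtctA
Rpl39: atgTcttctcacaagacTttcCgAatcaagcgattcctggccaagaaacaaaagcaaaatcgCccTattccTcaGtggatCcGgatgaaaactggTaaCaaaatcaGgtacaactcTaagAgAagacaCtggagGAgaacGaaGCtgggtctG
Rps27l: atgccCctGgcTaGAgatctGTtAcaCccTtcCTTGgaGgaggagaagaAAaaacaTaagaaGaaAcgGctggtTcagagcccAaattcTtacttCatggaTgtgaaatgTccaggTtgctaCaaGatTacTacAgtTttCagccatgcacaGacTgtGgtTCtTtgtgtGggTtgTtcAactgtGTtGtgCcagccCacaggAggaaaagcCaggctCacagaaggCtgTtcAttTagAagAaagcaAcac
Rps27: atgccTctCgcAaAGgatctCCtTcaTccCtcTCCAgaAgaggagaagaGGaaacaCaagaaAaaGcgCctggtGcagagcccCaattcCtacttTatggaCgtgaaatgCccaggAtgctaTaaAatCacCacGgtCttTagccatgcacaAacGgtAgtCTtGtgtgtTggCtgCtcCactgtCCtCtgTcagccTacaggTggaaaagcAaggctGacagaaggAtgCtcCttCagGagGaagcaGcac

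Rpl39l and Rpl39 differ at 23 of 153 bases (85.0% identity), and Rps27l and Rps27 at 60 of 252 (76.2%). Rpl10l and Rpl10, of 642 bases each, differ at 98 (84.7%).

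In the pairs of Rpl39, Rpl10 and Rpl22 the paralog made up less of the pair in 129 than in B6. Rpl39l held 71.3% and 75.9% of the CPM per kb of its pair in 129 and 86.5% and 87.2% in B6. Rpl10l held 35.5% and 41.8% in 129 and 51.2% and 64.5% in B6. Of the 76-base windows of Rpl10, 71.0% occur in other annotated genes, against 0.11% for Rpl10l. The count of Rpl10 and the shares of this pair are therefore uncertain. Rpl22l1 held 26.3% and 21.7% in 129 and 45.8% and 51.4% in B6. In these 3 pairs the 129 libraries were below both B6 libraries.

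Rpl7l1, the paralog of Rpl7, held 15.7% and 16.2% of its pair in 129 and 21.9% and 19.3% in B6, again with both 129 libraries lower. Rps27l went the other way, with 37.2% and 35.7% in 129 and 28.8% and 21.9% in B6. Rpl3l held 2.16% and 2.2% in 129 and 1.71% and 2.43% in B6, and overlapped. With 2 libraries per strain the exact permutation test cannot give a p below 0.333 for any pair. These shares use the union of exons as length, and their size depends on that choice. Over the 4 libraries Rpl10l averaged 70.9 and Rpl10 74.9 CPM per kb, but with the length of protein-coding transcripts 70.9 and 186. For Rpl22l1 and Rpl22 the means were 55.8 and 87.3 CPM per kb, but with that length 206 and 124.

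**Figure D4:**
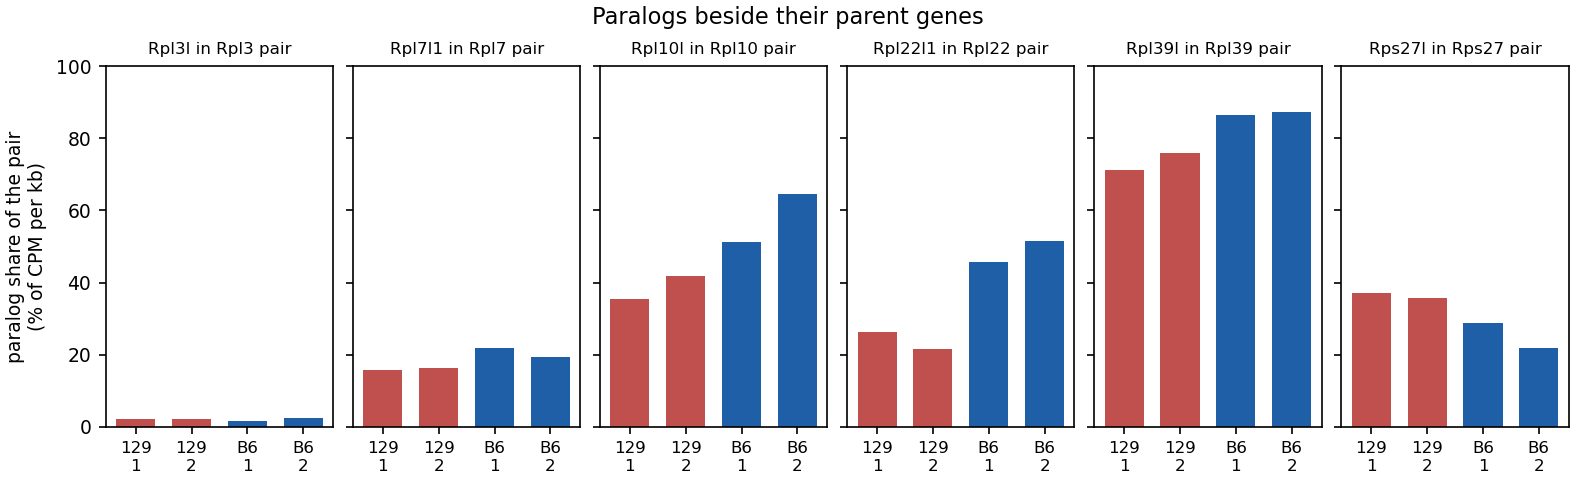
Share of each paralog in the CPM per kb of paralog and parent together (%), per library, 129 in red and B6 in blue. Rpl10l, Rpl22l1 and Rpl39l are lower in both 129 libraries than in both B6 libraries, and Rps27l is higher in both.

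Of the autosomal copies of X-linked genes, Rpl10l (ENSMUSG00000060499, chr12:66283379-66284401, minus strand) was at 56.1 and 53.5 CPM in 129 and at 76.3 and 104.2 CPM in B6. Its log2 fold change was −0.72 ± 0.23 and it was not called (edgeR adjusted p 0.107). Its parent Rpl10 had the opposite sign, 0.44, as did Rpl39 (0.19) beside Rpl39l (−1.06). The germ cell markers were lower in sum in 129 replicate 1 (3280 CPM) than in the other 3 libraries (4083 to 4358 CPM), and the fibroblast, Sertoli and endothelial sums are given above; their part in these paralog shares was not tested.

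By chromosome, the largest differences lay on chromosome 3. Its 4 members, Rps3a1, Rpl22l1, Rpl34 and Rps27, had a median log2 fold change of −1.63, against −0.094 for the 749 other tested genes of that chromosome, and in all 4 the 129 libraries were below the B6 libraries. Rps27 itself was at 155.3 and 180.1 CPM in 129 and at 225 and 277 CPM in B6 (log2 fold change −0.58 ± 0.20, edgeR adjusted p 0.116). Chromosome 7 holds 14 members, the most of any. Their median was −0.36, and 11 of them did not overlap and were lower in 129, where 66.3% of all members and 29.2% of all genes tested were.

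Chromosome 15 differed in the other direction in its remaining genes. Its 660 other tested genes had a median of 0.51, whereas its 4 members had −0.19. Rpl30 was at 129.5 and 144.2 CPM in 129 and at 221 and 227 CPM in B6 (log2 fold change −0.71 ± 0.18, edgeR adjusted p 0.066). Rpl3, which reaches towards the peptidyl transferase centre, was at 384 and 408 CPM in 129 and at 580.2 and 525 CPM in B6, with −0.48 ± 0.17. Rpl37 and Rpl8 had log2 fold changes of 0.11 and 0.17, below that chromosome's median. Rpl37 was −0.010 without 129 replicate 2.

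The 4 members on the X chromosome had a median of 0.24, against 0.026 for the 590 other genes. Rpl36a was the 1 of them below 0, at 163.1 and 181.2 CPM in 129 and 218 and 176.4 CPM in B6. Over all chromosomes, 73 of the 83 members lay below the median of the other genes of their own chromosome, by a median of −0.30.

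**Figure D5:**
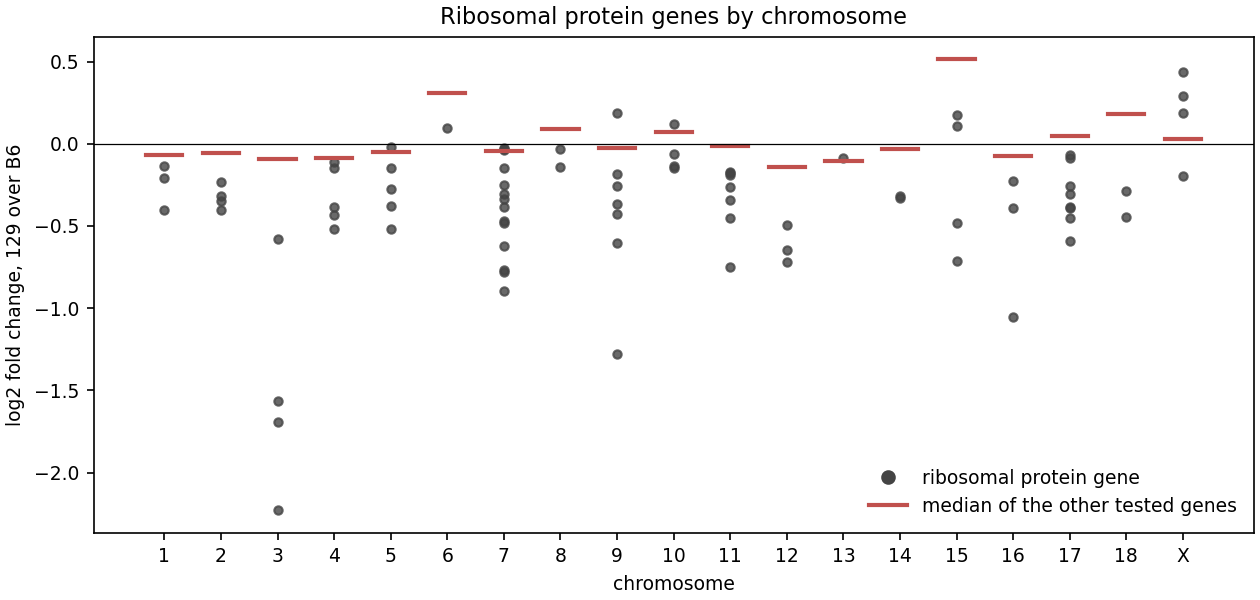
Log2 fold change (129 over B6) of each ribosomal protein gene by chromosome (points), with the median of the other tested genes of that chromosome (red line). Members of chromosome 3 reach −2.23, and those of chromosome 15 lie below a chromosome median of 0.51.

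The promoters were searched for 4 sequence features in the RefSeq windows from 250 bases before to 50 after a start, in which 63 of the 83 members were found. A pyrimidine run of 8 or more bases between 20 before and 30 after a start was present in 34 of them (54.0%), against 21.5% of all 27025 genes. The letters CCGGAAG, the core of the ETS family motif, were found on either strand in 26 (41.3%), against 9.93%. AAGATGGC, the core of the YY1 motif, was present on either strand in 6 (9.52%), against 3.19%, and TATAAA on the sense strand in 6 (9.52%), against 9.77%.

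The strain difference was set beside these features, with no test. The median log2 fold change was −0.34 in members with the pyrimidine run and −0.26 in those without, and −0.31 with CCGGAAG and −0.33 without. It was −0.58 in the 6 members with AAGATGGC and −0.31 in the 57 without. A match here describes the letters in the window and names no bound factor.

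Other genes of the ribosome and its assembly were read from lists. Their counts at an unadjusted edgeR p under 0.05 take both directions, for which all genes gave 4492 of 16005. Rack1, a small subunit scaffold whose symbol the name rule does not take, was at 820.1 and 772 CPM in 129 and at 1100.2 and 1149 CPM in B6 (log2 fold change −0.50 ± 0.16, edgeR adjusted p 0.105). Fau, whose product carries a small subunit protein, was at 169.5 and 152.1 CPM in 129 and at 155.4 and 203.8 CPM in B6. Of 4 such genes, 2 were lower in 129 without overlap (50%, against 29.2% of all genes tested) and 2 overlapped.

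RNA polymerase I, which transcribes the ribosomal RNA, had 14 tested genes with a median log2 fold change of −0.32. Of them 11 (78.6%) were lower in 129 without overlap, against 29.2% of all genes tested. EdgeR called 0 (2 at an unadjusted p under 0.05, 1 lower by DESeq2). Rrn3, its initiation factor, was at 172.3 and 191.9 CPM in 129 and at 339.9 and 175.1 CPM in B6, and overlapped. Ubtf, which binds the ribosomal DNA, was at 171.1 and 175.9 CPM in 129 and at 240.4 and 279.9 CPM in B6 (log2 fold change −0.58 ± 0.18, edgeR adjusted p 0.0973).

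The 38 ribosome biogenesis genes had a median of −0.31. Of them 22 (57.9%) were lower in 129 without overlap, against 29.2% of all genes tested. EdgeR and DESeq2 called 0. At an unadjusted edgeR p under 0.05, in either direction, there were 10, against 4492 of the 16005 genes tested. Tcof1 was among the 10 and was higher in 129 (log2 fold change 0.51). Ncl, the nucleolar protein nucleolin, was at 991 and 1211 CPM in 129 and at 1435 and 1201 CPM in B6. Npm1, the nucleolar chaperone, was at 629 and 759 CPM in 129 and at 1187 and 882 CPM in B6 (log2 fold change −0.58 ± 0.21, edgeR adjusted p 0.132). Ncl overlapped between the strains and Npm1 did not.

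Translation factors and other genes with TOP messengers had a higher median, 0.067 over 14 genes, with 0 called by edgeR or DESeq2 (1 at an unadjusted p under 0.05). Of them 7 lie on chromosome 15, with a median of 0.20, and the 7 on other chromosomes had −0.17. Eef1a1, the elongation factor that brings transfer RNA, was at 3266 and 3253 CPM in 129 and at 3935 and 3794 CPM in B6 (log2 fold change −0.25). Eef2, the translocation factor, was at 3190 and 2887 CPM in 129 and at 3737 and 3774 CPM in B6 (−0.31). Both were lower in each 129 library and neither was called (edgeR adjusted p of 0.329 and 0.248).

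Of 19 regulators, edgeR called 0, while 5 had an unadjusted p under 0.05 and DESeq2 called 1 higher and 1 lower; their median was −0.036. Larp1, which binds the TOP element, was at 339 and 431 CPM in 129 and at 447 and 437 CPM in B6 (log2 fold change −0.20). Mtor, the kinase upstream of it, was at 274 and 333 CPM in 129 and at 404 and 391 CPM in B6 (−0.39). Myc, a transcriptional activator of ribosome genes, was at 32.1 and 10.9 CPM in 129 and at 7.10 and 6.68 CPM in B6. Its log2 fold change of 1.64 ± 0.55 had an adjusted p of 0.117 by edgeR and 0.0253 by DESeq2. Myc lies on chromosome 15, whose tested genes had a median log2 fold change of 0.51. Mycn was at 75.6 and 95.1 CPM in 129 and 75.3 and 57.0 CPM in B6 (0.37). Mycl, of the same family, ran the other way, at 18.5 and 31.9 CPM in 129 and at 100.6 and 39.9 CPM in B6 (log2 fold change −1.48 ± 0.48, adjusted p 0.111 by edgeR and 0.0234 by DESeq2).

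The 78 mitochondrial ribosomal protein genes had a median log2 fold change of −0.094, with 0 called by edgeR (5 at an unadjusted p under 0.05, 2 by DESeq2). Of them 46 had a log2 fold change below 0 (59.0%, against 49.1% of all genes). Without overlap, 21 were lower (26.9%, against 29.2% of all genes) and 19 higher in 129 (24.4%, against 31.0%). Mrpl38 was at 104.3 and 116.5 CPM in 129 and at 107.8 and 108.9 CPM in B6, and overlapped. Mrps14, chosen after its values were seen, was at 32.5 and 33.7 CPM in 129 and at 83.2 and 67.0 CPM in B6 (log2 fold change −1.18 ± 0.23, edgeR adjusted p 0.0501).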

How the data were processed

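The authors deposited raw read counts per gene, with 1 column for each library. The tools named in the submitters' processing notes are HISAT2 2.2.1 (with mm10), HTSeq 0.13.5, cutadapt 3.4, DESeq2 1.30.1 and bcl2fastq 2.20. Per the labels' protocols, single reads of 76 bp were sequenced. The strand setting, the annotation and the treatment of reads with several positions are not stated in the labels used. The build is that of C57BL/6, and the effect of 129 variants on the counts was not tested.

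Members and lists were chosen with earlier results of these data known. The counts were fitted with edgeR 4.0.16 in R 4.3.3 (filterByExpr, TMM factors 0.982 to 1.04, robust quasi-likelihood test, strain as the only term), with Benjamini-Hochberg adjustment over 16005 genes. Each SE was obtained as the size of the log2 fold change over the square root of F. CPM use TMM-scaled totals, and the biological coefficient of variation was 0.309. GENCODE M21 matched 32235 of 32285 identifiers and gave lengths and copies. The script was tested on simulated data. Replicates differed beyond counting noise, with a chi-square per gene of 70.4 in 129 and 55.2 in B6.

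Named members were those called, the 6 highest and 6 lowest log2 fold changes at 10 CPM or more, the 5 highest levels per subunit, paralogs with parents, and members on chromosome 15; of each list, called genes or the 2 most abundant, and of the regulators also Myc, Mycn and Larp1. A pair of these genes is not reported here. Rps3, Rps15a, Rpl26, Rpl5, Rpl11, Rps24, Rpl36a, Rps28, Rps18, Rpl35, Rpl15, Rpl27a, Tcof1, Mycl and Mrps14 were added after their values were seen. Alternatives were other size factors, filters, DESeq2 1.42.0, limma-voom 3.58.1, a replicate block, each library left out, other denominators and other member sets.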

Additional observations from a re-analysis of the deposited data

How the results depend on the processing

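The median log2 fold change of the 83 genes stayed negative under every alternative run, from −0.41 (without B6 replicate 1) to −0.23 (without 129 replicate 1). The share difference was −0.864 to −0.397 percentage points when 1 library was left out, and −0.662 to −0.603 under the other denominators and member sets. No alternative called a member higher. The members called lower numbered 2 to 4 under the other size factors, filters and limma-voom, 10 under DESeq2, and 0 to 2 with 1 library left out; the lone library of a strain is then assumed to vary like the other strain. Calls over all genes, 457, were 1021 with upper-quartile factors, 1052 with library totals, 260 with no filter, 150 with the stricter filter, 2455 under DESeq2, 263 under limma-voom and 0 to 827 with 1 library left out. Matching the libraries by replicate number gave r = −0.022 over 16005 genes. In 49 of the 83 members replicate 2 was above replicate 1 in both strains. Taken singly, 62 members were so in 129 and 64 in B6. The 49 was not set against what these counts would give together. A replicate effect within subsets of genes was not tested. The replicate block gave 844 calls, 4 of them members. Rpl39l lost its call under TMM without members, TMM without chromosome 15, both filters and limma-voom; Rpl34 gained one under library totals, upper-quartile or DESeq2 factors, the block and DESeq2 itself. Among the named genes, leaving out 1 library turned the sign of 6 that were not called, whose log2 fold changes then ranged over −0.30 to 0.051 (Rpl22), −0.053 to 0.57 (Rps4x), −0.11 to 0.28 (Rpl32), −0.010 to 0.22 (Rpl37), −0.050 to 0.41 (Rpl39) and −0.22 to 0.064 (Rps15). The causes were not tested. With 2 libraries per strain, precision is limited by the spread between libraries.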
